A study of Mus musculus with 8 samples.

Results

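Expression of 8 Wnt ligand genes, Wnt3, Wnt4, Wnt5a, Wnt5b, Wnt6, Wnt7a, Wnt7b and Wnt11, was compared between embryonic day 15.5 (E15.5) hippocampi of growth-restricted and control mice. The members were picked by gene name from a list of Wnt ligands that were not among the changed genes listed by the study, so a low number of calls among them is partly built into the choice. They are 8 of the 15 Wnt ligand genes in the table of 16397 genes, and 8 of the 13 that were tested. Of the 19 Wnt ligand genes of the mouse, Wnt1, Wnt8a, Wnt9b and Wnt10b were not analysed here. Wnt2 and Wnt16 were in the table and not on the study's list either, but they were under the count filter and are no members. The study's listed ligands Wnt2b, Wnt3a, Wnt8b, Wnt9a and Wnt10a include genes of the cortical hem, the signaling center at the edge of the hippocampal primordium. Wnt5a and Wnt7b are known to be transcribed in the hem too, so the 8 genes are defined by their absence from that list and not by a place of expression.

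All 8 libraries came from C57Bl/6J embryos whose dams had surgery at E12.5, with 1 library per sample. In the 4 intrauterine growth restriction (IUGR) samples (T1-1, T1-3, T1-4 and T1-5), the implanted micro-osmotic pump held U-46619, an analog of thromboxane A2 that makes the dam hypertensive. In the 4 sham samples (S1-4, S1-6, S3-1 and S3-4), the pump held vehicle. Both sexes were used, but the labels give neither the sex of a sample nor its dam or litter, so p values measure only the spread between these samples. All IUGR samples have the prefix T1 and the sham samples S1 or S3, a prefix whose meaning the sources do not give. Effects of the drug, of the hypertension of the dam and of restricted growth cannot be told apart in this design. Values are raw reads counted per gene, with 11212632 to 16672463 counts per library.

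Wnt ligands are secreted, lipid-modified glycoproteins that bind Frizzled receptors together with coreceptors. With Lrp5 or Lrp6 they stabilize beta-catenin, which acts with TCF/LEF factors on target genes. With Ror or Ryk receptors they act on cell polarity and movement. In the embryonic forebrain, Wnts from the cortical hem are needed for the hippocampus to form, whereas Wnt7a and Wnt7b, made by neural progenitors and neurons, drive the growth of brain vessels and their barrier.

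None of the 8 ligands passed the study's cut-offs between IUGR and sham hippocampi with the test used here, which need not be the study's test. With edgeR's quasi-likelihood test, 0 of 8 members were called (adjusted p no higher than 0.05 and a log2 fold change of 1 or more in size), against 1.46% of all tested genes. At an unadjusted p under 0.05 there was 1 member, Wnt7b, against 11.1% of all tested genes, so 1 of 8 was close to the background. DESeq2 and limma-voom also called 0 members, beside 425 and 328 of all 13707 tested genes. They had 2 and 1 members at an unadjusted p under 0.05, beside 1628 and 1511 of all tested genes. For 0 of 8 members were the groups' ranges of CPM (counts scaled to the library size) separate, against 7.14% of all tested genes. The log2 fold change, with positive values for higher expression in IUGR, was above 0 for 3 members and below 0 for 5. Its median was −0.21 for the members and −0.02 for all tested genes. In contrast, 3 of the 5 listed ligands were called, all 5 had separate ranges and their median was −2.32, which is a description because the study chose them on these samples. The intervals of Wnt3, Wnt4, Wnt6, Wnt7b and Wnt11 reach past a log2 fold change of 1 or −1, so a lack of a call does not show equal expression.

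**Figure D1:**
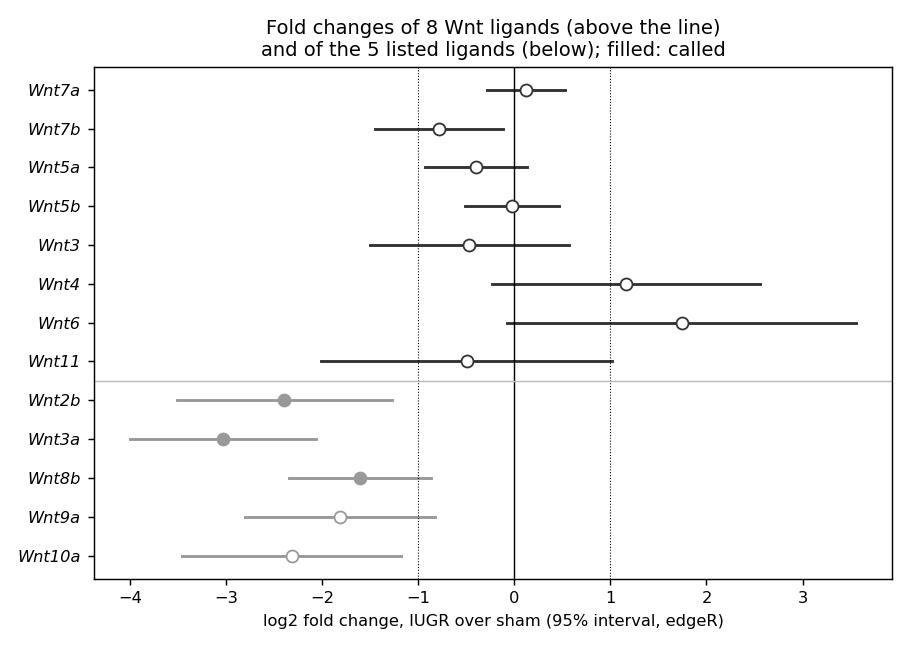
Log2 fold change of expression, IUGR over sham, with the 95% interval of edgeR's test (horizontal axis), for the 8 members above the grey line and the 5 listed ligands below it; filled points were called and dotted lines mark the fold criterion. No point above the line is filled, and the interval of Wnt7b alone among the 8 lies wholly on one side of 0, from −1.45 to −0.12.

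Marker genes of other tissues varied between the samples, and their summed levels were read beside the members. In bulk tissue, fewer cells of a type and less RNA per cell cannot be told apart. Markers of the hippocampus and dorsal pallium were detected in every sample, with 153 to 533 summed RPKM (CPM divided by exon length in kilobases) in sham and 224 to 373 in IUGR. Markers of the subpallium were present in every sample too, at 107 to 234 in sham and 120 to 283 in IUGR. Choroid plexus markers summed to 4183 to 9626 in sham, against 34.6, 909, 19.2 and 591 in T1-1, T1-3, T1-4 and T1-5, and Tmem72 of that list was at 0 in T1-1. Cortical hem markers outside the Wnt family summed to 71.8 to 115 in sham and 13.8 to 58.7 in IUGR. This list holds Rspo1, Rspo2 and Rspo3, which the study listed as changed on these samples, and without them the sums of the groups overlapped. Library T1-3 stood apart in its meningeal fibroblast markers, at 428 against 18.8 to 121 in the other IUGR samples and 47.8 to 99.3 in sham, and values without it are given beside the results it moves.

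The order of the levels was described as RPKM, which allows genes to be compared. In sham hippocampi, Wnt7b was first at 14.9 ± 6.72 RPKM (SD, n = 4), followed by Wnt7a at 13.3 ± 2.31 and Wnt5a at 9.999 ± 3.81. The ranges of these 3 neighbors overlapped, and Wnt7b was above Wnt7a in the 2 S3 samples alone. Without S3-1 the first places turned, with Wnt7a at 13.8 and Wnt7b at 11.9 RPKM. Wnt5b at 3.05 ± 0.18 RPKM was clear of Wnt5a above it and Wnt3 below it. Wnt3 (1.04 ± 0.73), Wnt4 (0.50 ± 0.25), Wnt6 (0.34 ± 0.20) and Wnt11 (0.26 ± 0.06) followed with overlapping ranges between neighbors. In IUGR hippocampi, Wnt7a was first at 14.5 ± 3.01 RPKM, with Wnt7b at 8.64 ± 2.26 and Wnt5a at 7.58 ± 1.01, and the ranges of neighbors overlapped although Wnt7a was above Wnt7b in 4 of 4 samples. Wnt5b followed at 3.00 ± 0.75 RPKM, clear of Wnt5a but not of Wnt6. Wnt6 (1.12 ± 1.32), Wnt4 (1.10 ± 1.07) and Wnt3 (0.75 ± 0.16) overlapped, with Wnt4 above Wnt3 in 3 of 4 samples. Without T1-3 their order turned, with Wnt3 at 0.72, Wnt4 at 0.57 and Wnt6 at 0.47 RPKM. Over all 4 samples, Wnt11 was last at 0.18 ± 0.19, clear of Wnt3. With the longest transcript as length and all samples, the order of the 8 genes was the same in both groups.

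**Figure D2:**
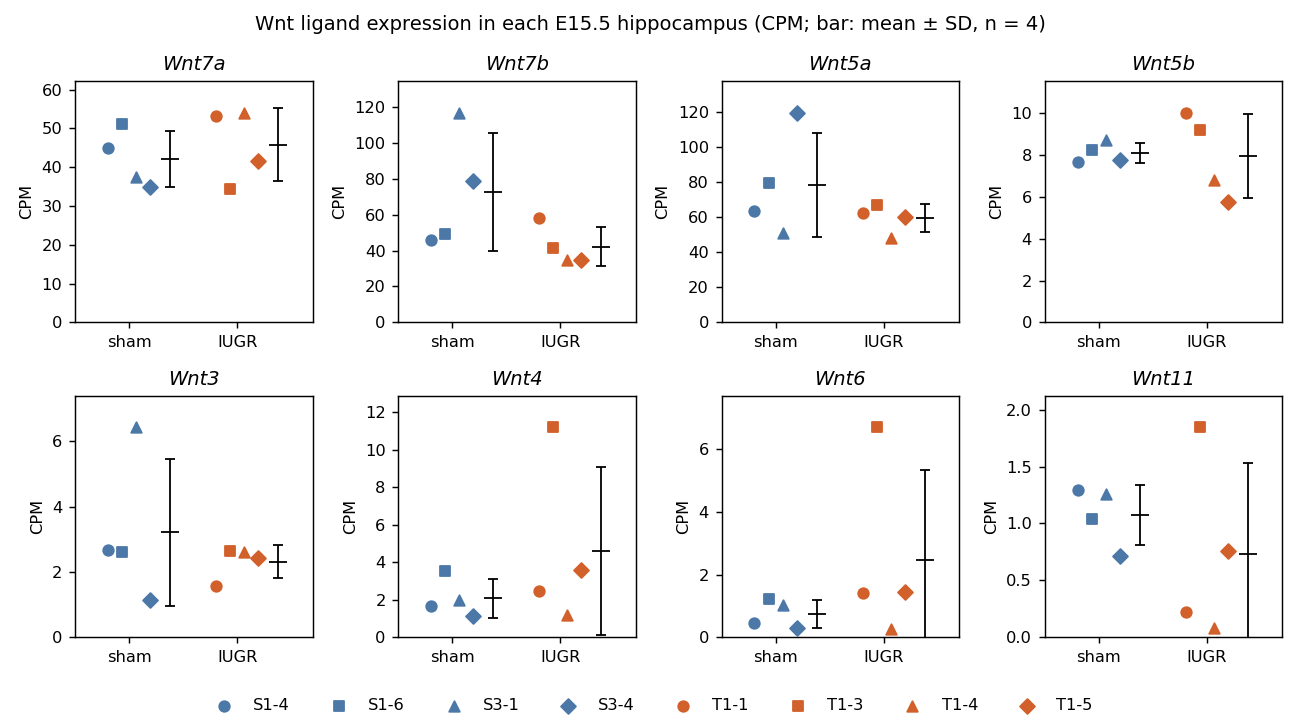
CPM of each member (vertical axes from 0) in the 4 sham (blue) and 4 IUGR (orange) hippocampi, with the sample given by the symbol and black bars for the mean ± SD, cut at 0 where they pass it. The groups overlap in all 8 panels, and T1-3 is far above the other samples for Wnt4, at 11.2 CPM, and Wnt6, at 6.70 CPM.

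Wnt7a and Wnt7b are close paralogs that signal to brain endothelium through Reck and Adgra2 (Gpr124). Wnt7a (chromosome 6, 91363981 to 91411363, minus strand, GRCm38) had 44.9, 51.1, 37.6 and 34.9 CPM in the sham samples S1-4, S1-6, S3-1 and S3-4. It had 53.3, 34.4, 54.1 and 41.7 CPM in the IUGR samples T1-1, T1-3, T1-4 and T1-5. The groups overlapped, with 2 IUGR samples above all sham samples and 1 below them. The log2 fold change of Wnt7a was 0.12 (standard error, SE, 0.18, 95% interval −0.29 to 0.53, adjusted p = 1.00 from edgeR), and the exact two-sided permutation test gave p = 0.629. This interval leaves out a log2 difference of 1 in either direction.

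Wnt7b (chromosome 15, 85535437 to 85582473, minus strand) had 46.0, 49.3, 117 and 78.9 CPM in S1-4, S1-6, S3-1 and S3-4. In T1-1, T1-3, T1-4 and T1-5 it had 58.2, 41.7, 34.6 and 34.7 CPM. Thus 3 of the 4 IUGR samples were below all sham samples, whereas T1-1 was above both S1 samples. Expression was 72.8 ± 32.9 CPM in sham and 42.3 ± 11.1 CPM in IUGR hippocampi (SD, n = 4). Its difference on the log2 scale was −0.78 (SE 0.30; edgeR gave an unadjusted p = 0.0250 and an adjusted p = 0.318). The exact two-sided permutation test gave p = 0.114, where the smallest p that 4 against 4 samples allow is 0.0286. Without S3-1 the log2 difference was −0.46. It also moved with the prefix of the sham samples. Against the S3 samples alone the log2 fold change was −1.18 (adjusted p = 0.127), and against the S1 samples alone it was −0.17 (adjusted p = 1.00). S3-1 and S3-4 also had the highest sums of hippocampal and dorsal pallial markers, at 416 and 533 RPKM, against 153 and 321 in S1-4 and S1-6. The S3-1 sum rested on Neurod6, at 236 RPKM there. Without Neurod6, S3-4 stayed highest, but S3-1 fell below S1-6, T1-1 and T1-3. The part of these markers in the Wnt7b values was not tested.

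The within-sample log2 ratio of Wnt7a to Wnt7b CPM does not depend on sequencing depth. It was −0.04, 0.05, −1.63 and −1.17 in S1-4, S1-6, S3-1 and S3-4, and −0.13, −0.28, 0.64 and 0.26 in T1-1, T1-3, T1-4 and T1-5. Only the S3 samples were well below 0, and the groups overlapped. The mean was 0.82 higher in IUGR (0.13 ± 0.41 against −0.70 ± 0.84, SD, n = 4), with an exact two-sided permutation p = 0.200. Against the S1 samples alone the difference was 0.12, and against the S3 samples alone 1.53, while without S3-1 it was 0.51. Among IUGR samples, Wnt7a ran T1-4, T1-1, T1-5 and T1-3 from high to low, and so did the sum of subpallial markers, at 283, 185, 176 and 120 RPKM. Dlx1 of that list had 58.8 RPKM in T1-1 and 43.2 RPKM in T1-5. Without Dlx1, T1-5 was above T1-1 and the order did not hold. The sum of general neuron markers also had the IUGR order of Wnt7a, at 1369, 1314, 1297 and 1283 RPKM, but 62.8% to 77.2% of it was Tubb3 in each sample. Without Tubb3 the order did not hold, with T1-3 highest at 478 RPKM, and in sham the sum ran S3-1, S1-4, S1-6 and S3-4, unlike Wnt7a. All 10 neuron markers had a log2 fold change above 0 (median 0.62, 6 at an unadjusted p under 0.05). In sham, Wnt7a was higher in both S1 samples (subpallial sums of 234 and 219 RPKM) than in both S3 samples (107 and 115 RPKM). The part of these markers in the Wnt7a values was not tested.

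**Figure D3:**
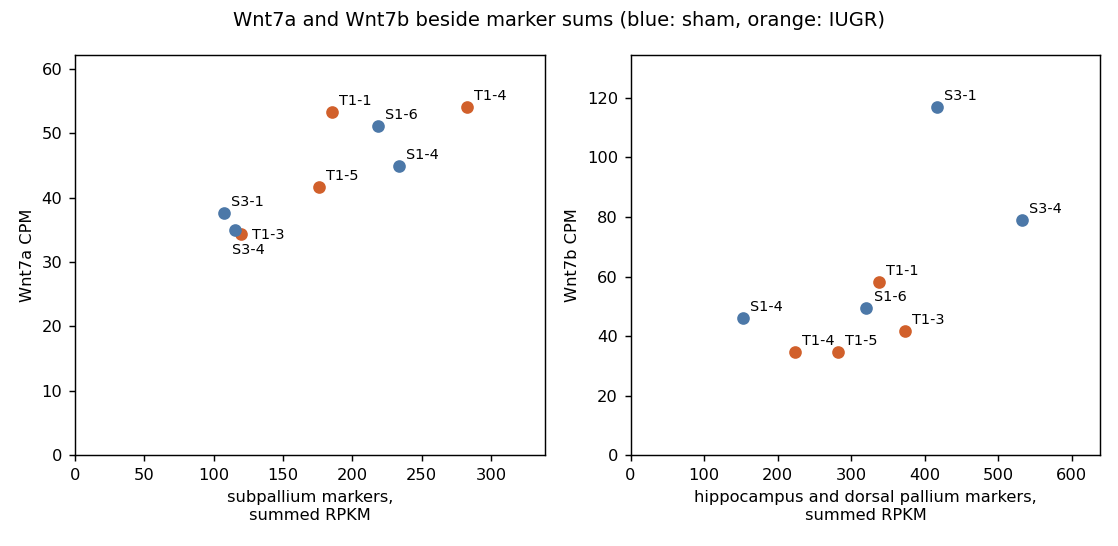
CPM of Wnt7a (left) and Wnt7b (right) in each of the 8 samples, against the summed RPKM of subpallial markers and of hippocampal and dorsal pallial markers, with sham in blue and IUGR in orange. For Wnt7a the samples of the groups are mixed along the axis, and for Wnt7b the 2 S3 samples lie at the upper right, at 117 and 78.9 CPM.

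The genes whose log2 CPM ran most like that of a member over the 8 samples were taken from tested genes that averaged 50 or more counts. For Wnt7a they were Bcl11b, Lipg and Nkx2-3 (Pearson r 0.97, 0.93 and 0.93). Bcl11b (Ctip2) is a transcription factor of deep-layer cortical, hippocampal and striatal neurons. For Wnt7b they were Chrna7, Slc39a11 and Btbd17 (r 0.98, 0.97 and 0.96), of which Chrna7 encodes the alpha-7 nicotinic receptor subunit. These are the top 3 of 11906 genes over 8 samples that differed in their tissue marker sums, and such high r values are given as a description only.

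Wnt5a and Wnt5b are paralogs that mostly signal outside the beta-catenin branch, through Ror and Ryk receptors. Wnt5a (chromosome 14, 28504750 to 28527448, plus strand) had 63.2, 79.1, 51.1 and 119 CPM in S1-4, S1-6, S3-1 and S3-4, and 62.1, 66.9, 48.2 and 60.2 CPM in T1-1, T1-3, T1-4 and T1-5. S3-4 was far above the rest, S1-6 was next, and the groups overlapped, with T1-4 below all sham samples. On the log2 scale the difference was −0.40 (SE 0.24, 95% interval −0.93 to 0.13, adjusted p = 0.703 from edgeR; exact permutation p = 0.257). It was −0.12 without S3-4 and −0.56 without S3-1. S3-4 also had the highest sum of hem markers outside the Wnt family, at 115 RPKM. That rank rested on Rspo1, Rspo2 and Rspo3 (18.6, 13.15 and 35.6 RPKM in S3-4), and without them S1-4 was higher. The part of these markers in the Wnt5a value was not tested.

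Wnt5b (chromosome 6, 119432531 to 119544347, minus strand) was the most even member in sham, with 7.67, 8.22, 8.71 and 7.77 CPM in S1-4, S1-6, S3-1 and S3-4. IUGR samples spread to both sides of this range, with 10.04 and 9.22 CPM in T1-1 and T1-3 and 6.83 and 5.78 CPM in T1-4 and T1-5. The means were thus close (8.09 ± 0.47 CPM in sham, 7.97 ± 1.997 in IUGR, SD, n = 4) although every IUGR sample was outside the sham range. EdgeR's estimate was −0.02 (SE 0.22, 95% interval −0.51 to 0.47, adjusted p = 1.00; exact permutation p = 0.771), with a sign that turned with the setting. Wnt5b ran most like Znhit2, Adamtsl2 and Mknk2 (r 0.95, 0.93 and 0.93). The log2 ratio of Wnt5a to Wnt5b was 3.18 ± 0.58 in sham and 2.90 ± 0.32 in IUGR, a difference of −0.28 (exact two-sided permutation p = 0.457), which was −0.03 without S3-4 and −0.50 without S3-1.

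Wnt3 activates the beta-catenin branch and is a close paralog of the listed ligand Wnt3a. It lies on chromosome 11 (103774150 to 103817957, plus strand). It had 2.68, 2.60, 6.43 and 1.14 CPM in S1-4, S1-6, S3-1 and S3-4, and 1.57, 2.64, 2.61 and 2.43 CPM in T1-1, T1-3, T1-4 and T1-5. Both the highest and the lowest value belonged to S3 samples, and the IUGR values lay between them. Its log2 fold change was −0.47 (SE 0.47, 95% interval −1.51 to 0.57, adjusted p = 0.983 from edgeR) and turned to 0.12 without S3-1. The difference of mean log2 CPM over all samples was −0.24 (exact permutation p = 0.657). By contrast, Wnt3a had 8.41, 12.9, 9.10 and 19.4 CPM in the sham samples and 0.52 to 2.43 CPM in IUGR. Wnt3 ran most like Mrpl55, Sin3b and Bad (r 0.94, 0.94 and 0.94).

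Wnt4 and Wnt6 are known from the kidney, gonads and surface ectoderm, and they had the largest positive log2 fold changes of the members. Their values rested on T1-3. The first exons are preceded by GC-rich sequence in the RefSeq promoter table (build GRCm38.p6), which held 6 of the 8 members, all but Wnt5a and Wnt7b. The stretches below, from the 250 bases before the RefSeq start and cut where the annotated gene begins, are shown for the 3 ligands whose values T1-3 moved most, Wnt4, Wnt6 and Wnt11, and for Wnt7a, the most abundant member in IUGR, as a comparison. Capitals mark a GC box (GGGCGG or its complement CCGCCC), a TCF/LEF core (CTTTGA or TCAAAG) or a TATA box (TATAAA or TTTATA), each searched on both strands with overlapping matches counted.
Wnt4, chr4:137277385-137277488, plus strand: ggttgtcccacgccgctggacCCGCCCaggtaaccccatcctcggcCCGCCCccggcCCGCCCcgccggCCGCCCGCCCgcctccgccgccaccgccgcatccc
Wnt6, chr1:74771642-74771891, plus strand: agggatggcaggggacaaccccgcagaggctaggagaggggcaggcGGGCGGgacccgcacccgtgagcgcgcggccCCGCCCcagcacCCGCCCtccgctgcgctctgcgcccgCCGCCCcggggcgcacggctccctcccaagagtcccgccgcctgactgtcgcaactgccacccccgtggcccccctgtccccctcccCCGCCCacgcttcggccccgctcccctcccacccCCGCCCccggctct
Wnt11, chr7:98834862-98835111, plus strand: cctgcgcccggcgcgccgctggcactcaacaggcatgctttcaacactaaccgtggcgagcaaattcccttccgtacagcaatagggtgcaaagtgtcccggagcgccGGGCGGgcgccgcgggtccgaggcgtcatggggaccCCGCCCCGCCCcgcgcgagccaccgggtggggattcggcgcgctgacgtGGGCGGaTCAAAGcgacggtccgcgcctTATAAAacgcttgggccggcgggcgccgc
Wnt7a, chr6:91411364-91411603, minus strand: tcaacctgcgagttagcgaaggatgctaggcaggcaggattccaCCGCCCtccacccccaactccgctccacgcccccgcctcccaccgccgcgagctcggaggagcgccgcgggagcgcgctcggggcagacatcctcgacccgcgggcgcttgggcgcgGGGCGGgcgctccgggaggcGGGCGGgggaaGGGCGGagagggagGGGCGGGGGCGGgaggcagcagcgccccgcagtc

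Over the full 250 bases, Wnt4 had 8 GC boxes, Wnt6 and Wnt7a had 6 each and Wnt11 had 4. A second RefSeq window of Wnt11, inside the gene and not printed, had a GC content of 56.8% and none of the motifs. Among all 32851 promoter windows of this length, 32.7% held at least 1 GC box. The GC content was 85.2% for Wnt4, 79.6% for Wnt6, 77.6% for Wnt7a and 70.8% for Wnt11, against a median of 52.4% over all windows. The Wnt11 window alone of the 4 printed held a TATA box, which began 29 bases before the start, and a TCF/LEF core, which began 50 bases before it. TATA boxes and TCF/LEF cores were in 12.4% and 13.8% of all windows. These matches describe the letters only.

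Wnt4 (chromosome 4, 137277489 to 137299726, plus strand) had 1.66, 3.55, 1.96 and 1.14 CPM in S1-4, S1-6, S3-1 and S3-4, from 16 to 41 counts. In T1-1, T1-3, T1-4 and T1-5 it had 2.47, 11.2, 1.18 and 3.57 CPM, from 33, 182, 14 and 47 counts. T1-3 was far above all samples, T1-5 was level with S1-6, and T1-4 was level with the lowest sham sample. The log2 fold change was 1.16 (SE 0.63, 95% interval −0.24 to 2.56, adjusted p = 0.618 from edgeR). Without T1-3 it was 0.25 (adjusted p = 1.00). The difference of mean log2 CPM over all samples was 0.75 (exact permutation p = 0.343).

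Wnt6 (chromosome 1, 74771892 to 74785322, plus strand) had 0.46, 1.21, 1.02 and 0.29 CPM in S1-4, S1-6, S3-1 and S3-4, from 5, 14, 13 and 4 counts. In T1-1, T1-3, T1-4 and T1-5 it had 1.42, 6.70, 0.25 and 1.44 CPM, from 19, 109, 3 and 19 counts. Thus 3 of the 4 IUGR samples were above all sham samples, and T1-4 was below them all. Wnt6 thus had a log2 fold change of 1.74 (SE 0.82, 95% interval −0.08 to 3.56, adjusted p = 0.483 from edgeR). Without T1-3 it was 0.53 (adjusted p = 1.00). The difference of mean log2 CPM over all samples was 1.005 (exact permutation p = 0.314).

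Wnt4 and Wnt6 had the same order over the samples of each group. In IUGR both ran T1-3, T1-5, T1-1 and T1-4 from high to low, as did the sum of meningeal fibroblast markers, at 428, 121, 56.9 and 18.8 RPKM. In sham both ran S1-6, S3-1, S1-4 and S3-4, while the marker sums were 99.3, 71.3, 73.7 and 47.8 RPKM. With edgeR none of the 13 meningeal markers was called, 0 had an unadjusted p under 0.05, and DESeq2 and limma-voom called 0 each. Leaving out T1-4 or T1-1 gave 8 or 3 markers at an unadjusted p under 0.05. Of the 13, 12 had a log2 fold change above 0, with a median of 1.12, and none was at 0 RPKM in any sample. Without T1-3, 5 were above and 8 below 0, the median was −0.03, and 1 marker, Ptgds, was called at −1.81. The collagen gene Col3a1 had 134 RPKM in T1-3 and 2.29 RPKM in T1-4. The hem, choroid plexus and thalamic markers ran in the same order over the IUGR samples, so these lists could not be separated there. Of 8 surface epithelium markers, 4 were higher and 2 lower at an unadjusted p under 0.05, a median of 0.91 on the log2 scale and sums of 3.46 to 39.3 RPKM in IUGR and 35.9 to 68.2 in sham. Krt5 of this list, chosen after its values were seen, had 8.05, 5.09 and 8.52 RPKM in T1-1, T1-3 and T1-5, above the 1.39 to 3.47 RPKM of sham, and 0.81 RPKM in T1-4, below it, as Wnt6 did. Of the other 7 markers, 4 had the same pattern, Krt14, Krt15, Trp63 and Cdh1, with T1-1, T1-3 and T1-5 above all sham samples and T1-4 below them. Krt15, a keratin gene of basal epithelium, had 8.82, 4.87 and 13.5 RPKM in those 3 samples and 0.67 RPKM in T1-4, against 1.78 to 2.84 in sham. The remaining 3 did not have it, with log2 fold changes of −2.86 for Krt8, −3.04 for Krt18 and −0.26 for Epcam. The part of meningeal or epithelial tissue in the Wnt4 and Wnt6 values was not tested.

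The genes that ran most like Wnt4 were Adcy7, Gjb2 and Slc22a6 (r 0.99, 0.98 and 0.98), and those most like Wnt6 were Slc22a6, Cxcl12 and Adcy7 (r 0.98, 0.97 and 0.96). Gjb2 encodes connexin 26, Slc22a6 an organic anion transporter and Cxcl12 a chemokine made by the meninges. Slc22a6 and Adcy7 were thus near both ligands among 11907 genes searched, over 8 samples of which T1-3 was an extreme. Over the 7 samples without T1-3, r was 0.97, 0.93 and 0.93 for the genes given for Wnt4 and 0.94, 0.91 and 0.90 for those of Wnt6.

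Wnt11, a ligand of the branch outside beta-catenin, was the least abundant member. Wnt11 (chromosome 7, 98835112 to 98855195, plus strand) had 1.29, 1.04, 1.26 and 0.71 CPM in S1-4, S1-6, S3-1 and S3-4, from 14, 12, 16 and 10 counts. In T1-1, T1-3, T1-4 and T1-5 it had 0.22, 1.84, 0.08 and 0.76 CPM, from 3, 30, 1 and 10 counts. T1-3 was above all sham samples, T1-1 and T1-4 were below them, and T1-5 was within their range. Its log2 fold change was −0.50 (SE 0.68, 95% interval −2.01 to 1.02, adjusted p = 1.00 from edgeR). The difference of mean log2 CPM was −0.92 (exact permutation p = 0.314). The log2 fold change was −1.51 without T1-3 (adjusted p = 0.383), −0.15 without T1-4 and −0.17 without T1-1, and −1.12 with limma-voom, so its size rested on single libraries of very few counts.

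Within each group, Wnt11 had the same sample order as the sum of choroid plexus markers, T1-3, T1-5, T1-1 and T1-4 in IUGR and S1-4, S3-1, S1-6 and S3-4 in sham. Most of that sum was Ttr, the transthyretin gene, with 91.7% to 96.1% in sham and 44.7% to 89.6% in IUGR. Without Ttr the IUGR order held, at 94.9, 89.8, 13.2 and 10.6 RPKM, whereas in sham S3-4 became second, at 347 RPKM, and the order did not hold. T1-1 and T1-4 were the lowest of all 8 samples both in Wnt11 and in the choroid plexus sum, whereas T1-3 had the highest Wnt11 level with a sum of 909 RPKM, below the lowest sham sum of 4183 RPKM. Without T1-3, Wnt11 was the 1 member with an unadjusted p under 0.05 from edgeR, beside 1414 of all 13707 tested genes, and it was lower in IUGR. Its IUGR order was also that of the meningeal marker sum, which was highest in T1-3 at 428 RPKM. Its nearest genes were Serpinb9, Rdh10 and Ddx58 (r 0.98, 0.98 and 0.98), of which Rdh10 acts in the synthesis of retinoic acid. The part of choroid plexus or meningeal tissue in the Wnt11 values was not tested.

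**Figure D4:**
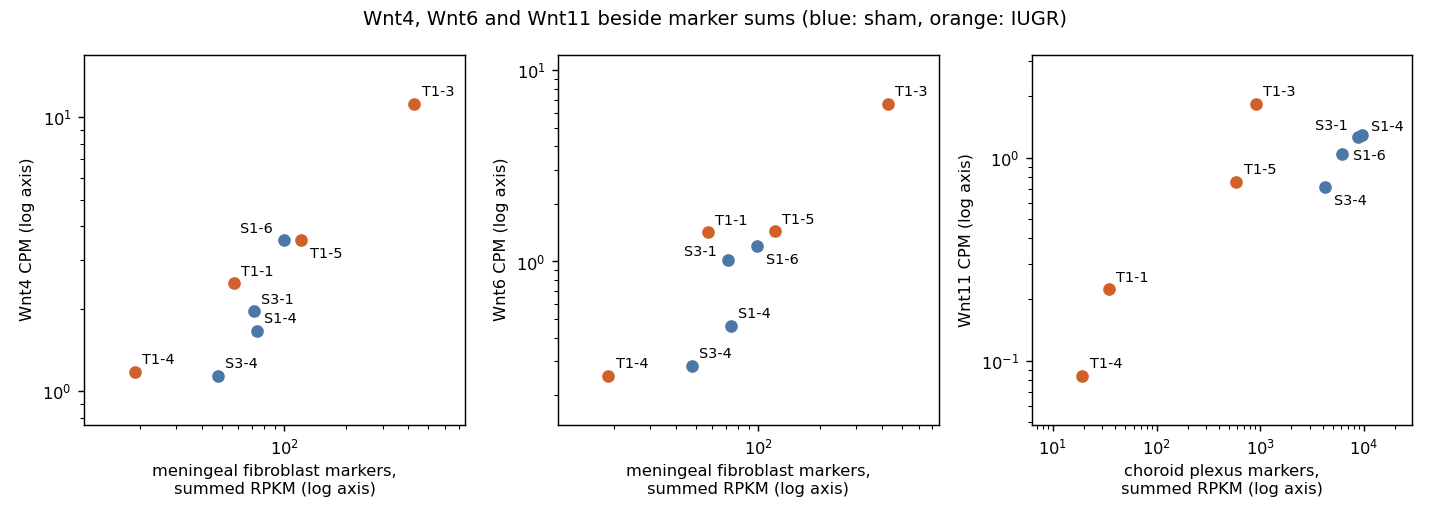
CPM of Wnt4 and Wnt6 against summed RPKM of 13 meningeal fibroblast markers, and of Wnt11 against summed RPKM of choroid plexus markers, in each of the 8 samples on log axes (sham in blue, IUGR in orange). T1-3 is at the upper right for Wnt4 and Wnt6, whereas the sham samples lie far to the right of T1-3 in the Wnt11 plot but below it.

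As a share of the summed RPKM of all 15 Wnt ligands in the table, the 8 members made up 67.2%, 64.6%, 77.8% and 56.8% in S1-4, S1-6, S3-1 and S3-4. They made up 92.0%, 85.3%, 86.0% and 81.2% in T1-1, T1-3, T1-4 and T1-5, a separation that the choice of members builds in, since the study listed the remaining 5 ligands as changed on these samples. The summed RPKM of the members overlapped between groups (36.3 to 48.9 in sham, 32.6 to 42.2 in IUGR). The 5 listed ligands summed to 13.9 to 35.2 RPKM in sham and 3.39 to 6.98 RPKM in IUGR. The higher share thus came with a smaller denominator. Wnt7a alone made up 20.9 ± 5.84% in sham and 34.1 ± 7.92% in IUGR (SD, n = 4).

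**Figure D5:**
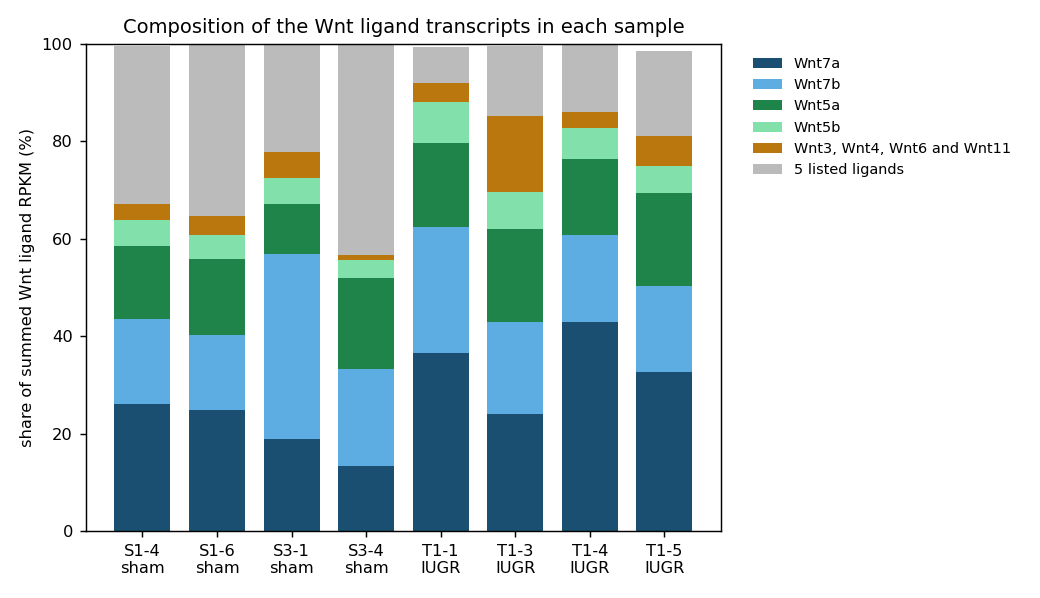
Share of the summed Wnt ligand RPKM (vertical axis, percent) taken by each of 4 members, by the other 4 members together and by the 5 listed ligands, in each sample; the small rest up to 100% is Wnt2 and Wnt16. The grey segment of the listed ligands is 22.1% to 43.2% in sham and 7.39% to 17.4% in IUGR samples.

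Genes that carry, receive or respond to Wnt ligands were read from lists of the pathway. With edgeR no gene of these lists was called, and unadjusted p values under 0.05 were found for 2 of 18 receptors and coreceptors, 2 of 11 genes of secretion and extracellular handling and 5 of 12 canonical readouts, all lower in IUGR, beside 11.1% of all tested genes. Such p values were also found for 1 of 15 planar cell polarity genes, which was higher, and for 5 of 8 endothelial genes that depend on Wnt7, of which 3 were higher and 2 lower. Apcdd1 counts under both the readouts and the endothelial genes. Sp5, 1 of the 5 readouts with such a p, was listed by the study as changed on these samples. Of 9 endothelium markers, 6 were above 0 with a median log2 fold change of 0.51, 2 of them higher and 1 lower at an unadjusted p under 0.05. Markers of choroid plexus and cortical hem were lower in IUGR too. Of 13 choroid plexus markers tested, 13 were below 0 with a median log2 fold change of −3.10, all 13 had an unadjusted p under 0.05 and 3 were called by edgeR. All 9 tested hem markers, none of them a Wnt gene, were below 0 with a median of −1.90, 6 had such a p and 4 were called, beside 1.46% of all tested genes. Of these 4, Rspo1, Rspo2 and Rspo3 were listed by the study as changed on these samples, and the other was Lmx1a. Bmp4, Bmp6 and Bmp7 of the list were at −0.56, −0.43 and −0.34. The part of endothelium, choroid plexus and hem in the pathway values was not tested. DESeq2 called 4 of these genes (Fzd7, Rnf43, Sp5 and Wls) among 425 calls over all 13707 genes, limma-voom called Fzd7 and Rnf43 among 328, and edgeR without T1-3 called 7 (Apcdd1, Fzd7, Fzd10, Gpc3, Rnf43, Sp5 and Wls) among 211.

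Among receptors, Fzd7 had the lowest p, with 36.8 to 48.4 CPM in sham, 14.1 to 30.9 CPM in IUGR and a difference of −1.05 on the log2 scale (SE 0.25, edgeR's adjusted p = 0.0723). Fzd1 followed at −0.46 (adjusted p = 0.391). The study, by contrast, reported Fzd7 as unaltered by RNA-seq and also by qRT-PCR of a separate cohort. In secretion, Wls, the carrier that takes Wnts to the cell surface, had a log2 fold change of −1.07 (adjusted p = 0.129), with 106 to 173 CPM in sham and 44.1 to 114 CPM in IUGR. The glypican gene Gpc3 had −1.42 (adjusted p = 0.385). Of the readouts, Rnf43, a ubiquitin ligase that removes Frizzled, had −1.37 (adjusted p = 0.0571) and the transcription factor gene Sp5 had −1.26 (adjusted p = 0.142). The study listed Sp5 as lower in IUGR on these samples, and reported it lower by qRT-PCR in a separate cohort. Among polarity genes, Prickle2 had 0.71 (adjusted p = 0.339) and Daam1 −0.22 (adjusted p = 0.561). Of the endothelial genes, the efflux pump gene Abcb1a had 0.90 (adjusted p = 0.109) and Apcdd1 −0.78 (adjusted p = 0.198), so they lay on both sides of 0 while Wnt7a and Wnt7b were at 0.12 and −0.78.

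Some members share their place in the genome with another annotated gene on the opposite strand. These are Wnt5a with Gm2670, Wnt5b with Fbxl14, Wnt6 with Gm29539, Wnt7b with AU022754 and Wnt11 with the pseudogene Gm8398. Exons are shared over 358 bases for Wnt5a, 324 bases for Wnt7b and 364 bases for Wnt11, and not for Wnt5b and Wnt6. The library kit kept the strand, but the strand setting of the counting was not given in the sources used here, so reads in the shared exons of Wnt5a, Wnt7b and Wnt11 could not be told apart from those of their partners.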

How the data were processed

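Total RNA of E15.5 hippocampi was depleted of ribosomal RNA and sequenced as single reads. The authors aligned reads to GRCm38 (mm10; Novoalign 2.8 per the submitters' processing notes) and deposited raw counts per gene, without normalization. The counting program, annotation and strand setting are not given in the sources used here. Of 16397 genes, 175 had no name and 16124 matched GENCODE M21. Samples were grouped by their labels. Protein-coding genes averaging at least 10 and fewer than 50000 counts, 13707 in all, were compared with edgeR 4.0.16 in R 4.3.3 (TMM, quasi-likelihood test; Benjamini-Hochberg adjustment across these genes). The study names no test. CPM used TMM library sizes, log2 CPM a prior count of 2, and RPKM the merged exon length. Exact two-sided permutation over 70 assignments tested the difference of mean log2 CPM of each member, or of the mean log2 ratio, and not edgeR's estimate. Counts of samples in a group differed beyond sampling noise in all 12 pairs, so each counted once. Promoter windows were from RefSeq.

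All 8 members were named, plus the 2 lowest p values of each pathway list and the 3 genes most like each member (for Wnt5a not reported here). Members and lists were chosen with earlier results of these data known. Alternatives were DESeq2 size factors, upper-quartile normalization, total counts, DESeq2 1.42.0, limma-voom (limma 3.58.1), edgeR's robust fit, no or a stricter count filter, all biotypes, the adjusted p alone, each sample left out, either the S1 or the S3 sham samples only, a prior count of 0.5 and longest-transcript length. Scripts ran in Python 3.11.15 with pandas 2.3.3 and scipy 1.17.1, and the count tests were tested on simulated data.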

Additional observations from a re-analysis of the deposited data

How the results depend on the processing

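No member was called in any of the 19 fits that tested it (Wnt3, Wnt4, Wnt6 and Wnt11 were not tested at a mean count of at least 50), and 4 against 4 samples limit what could be seen for the low-count members Wnt6 and Wnt11. Members with separate group ranges numbered 0, and 0 to 1 with each sample left out (Wnt7b without T1-1, Wnt6 without T1-4). The matching share of all tested genes is not given here. An unadjusted p under 0.05 from edgeR was found for Wnt7b without T1-1, S1-4 or S1-6. It was also found for Wnt4 without T1-4 or S1-6, Wnt6 without T1-4, Wnt11 without T1-3 and Wnt5a without S3-1. Wnt7b did not have it without T1-3, T1-4, T1-5, S3-1 or S3-4, nor against the S1 samples alone. With each sample left out, 1144 to 1654 of all 13707 tested genes had such a p. Over all tested genes, the 200 calls became 425 with DESeq2, 328 with limma-voom, 73 at a mean count of at least 50, 2 against the S3 samples alone, 0 against the S1 samples alone (1053 at an unadjusted p under 0.05) and 41 to 298 with each sample left out (41 without S1-4, 60 without S3-4, 65 without T1-1). The cause was not tested, except that leaving out samples lowers their number. Called pathway genes went from 0 to 4 with DESeq2, 2 with limma-voom and 0 to 7 with each sample left out. The log2 fold change of Wnt3 ranged from −0.76 to 0.12 with single samples left out, and its difference of mean log2 CPM from −0.62 to 0.17, both above 0 only without S3-1. Wnt7a turned to −0.067 against the S1 samples alone and was 0.37 against the S3 samples alone. With single samples left out it ranged from 0.033 to 0.27. Wnt5b, near 0, turned to 0.0052 with DESeq2 size factors, 0.0025 with upper-quartile normalization, 0.0064 with DESeq2, 0.020 without the filter, 0.016 at a mean count of at least 50 and 0.0045 against S1 samples alone. With single samples left out, Wnt5b ranged from −0.12 to 0.10 (0.045 without T1-4, 0.10 without T1-5, 0.020 without S1-6, 0.016 without S3-1), and its difference of mean log2 CPM from −0.14 to 0.085 (0.0069 without T1-4). No paired analysis was possible because the replicate numbers were given in accession order and name samples only.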
